A study of Mus musculus with 40 samples.

Results

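The effect of interleukin 4 (IL-4) on cultured spleen B cells that lack the guanine nucleotide exchange factor Dock10 was measured across genes on 10 of the 40 arrays of the series. The arrays were chosen by their labels. In the group KO_Ctrl, B cells of 5 Dock10 knockout mice, numbered 6 to 10, were kept in culture for 18 h with nothing added. In the group KO_IL4, cells of the same 5 mice were kept for 18 h with mouse recombinant IL-4 at 10 ng/ml. All mice were C57BL/6 and 12 weeks old, and the B cells had been taken from the spleen by negative selection, which leaves cells untouched by antibody. Wild-type B cells in the same states (WT_Ctrl and WT_IL4, n = 5 each) were used to test where the effect differed by genotype. The kind of deletion that made the knockout allele is not given in the sources used here. Each array compared a test sample with 1 common reference, RNA pooled from the knockout B cells of mice 6 to 10 before culture. Levels are log2 ratios to that pool, which stands at 0. A difference is the mean log2 level with IL-4 minus the mean without it.

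IL-4 is a cytokine of T helper cells, mast cells and basophils. On B cells it binds the IL-4 receptor alpha chain, which pairs with the common gamma chain, and the kinases JAK1 and JAK3 then phosphorylate the transcription factor STAT6. STAT6 dimers enter the nucleus and bind palindromic sites in target genes. In B cells IL-4 is known for raising MHC class II and the low-affinity IgE receptor CD23, for prolonging survival and for directing class switching to IgG1 and IgE.

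The median log2 ratio of the 10 arrays lay between -0.20 and -0.07 and the SD over genes between 0.87 and 1.18. Precision is limited by how many arrays there are. Of 10 markers that define B cells, 9 were measured, and their median level lay between -1.21 and -0.82 in KO_Ctrl and from -1.18 to -0.84 in KO_IL4, below the B cells before culture in every array. Dock10 itself lay at -1.56, -1.08, -0.91, -1.30 and -0.72 in KO_Ctrl of mice 6 to 10 and at 0.83, 0.41, 0.52, 0.26 and 0.58 in KO_IL4. Its mean was -0.57 ± 0.22 (SD, n = 5) in WT_Ctrl and 1.59 ± 0.31 (SD, n = 5) in WT_IL4, above the knockout mean in each state. Whether its 3 probes lie within the deleted part is not given in the sources used here, so they check the labels only in part.

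The control arrays of mice 8 and 10 stood apart from the other 3. Most of the genes that rose most with IL-4 lay higher in these arrays than in the other 3 control arrays, although all 5 are labelled as cultured with nothing. Cish had levels of 1.33, 0.91 and 1.06 in KO_Ctrl of mice 6, 7 and 9 and of 5.17 and 4.22 in those of mice 8 and 10, against 0.68 ± 0.23 (SD, n = 5) in WT_Ctrl. Of the 15 largest increases, 13 had both arrays above the other 3, as had 12.6% of all 21892 genes. For the 15 largest increases in wild-type cells, a list that does not rest on the knockout arrays, the number was 12. In wider sets the pattern was weaker or absent. Of 509 genes called at least 2-fold higher in wild-type cells 106 (20.8%) had both arrays above the other 3, and of 882 called at least 2-fold lower 92 (10.4%) had both below, against 19.6% of all genes. The control array of mouse 8 also had the largest SD, 1.18, and its correlation over genes with the IL-4 array of mouse 9 (Pearson r = 0.856) exceeded that with any control array (0.696 to 0.832). Results are given with all 10 arrays, and without these 2 where a named gene lost its call or its fold moved by over 1.5 times. Since the arrays were singled out by their levels, the values without them are a description. What set these arrays apart was not tested.

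Across all genes, IL-4 raised 876 and lowered 962 of 21892 genes at an adjusted p under 0.05 (limma, Benjamini-Hochberg adjustment over all genes), or 4.00% and 4.39%. The median difference over all genes was 0.02, 200 of the genes called higher and 299 of those called lower had changed at least 2-fold, and the smallest adjusted p was 1.1e-09. Among the called genes 1620 moved the same way in all 5 mice, 795 upward and 825 downward. The calls rest on the same arrays, so this agreement is partly set by the choice of genes and is no separate support. The share over all genes was not counted. The groups did not overlap in 598 of the genes called higher and in 600 of those called lower; over all genes, called or not, they did not overlap in 2019 (9.22%), with IL-4 above in 5.02% and below in 4.20%. Measured against the cells before culture, 362 of the genes called higher went from below the reference pool to above it, and 270 of those called lower went the opposite way.

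With the mouse as a block the counts were 962 higher and 1089 lower in the 30 arrays of the fit, and 330 and 515 when the 10 knockout arrays were fitted alone. Without the control arrays of mice 8 and 10, 813 genes (3.71%) were called higher and 958 (4.38%) lower, 1192 genes being called with and without them, and quantile normalization left 167 and 183 calls, with 79 of the 129 called genes chosen by rule losing theirs.

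**Figure D1:**
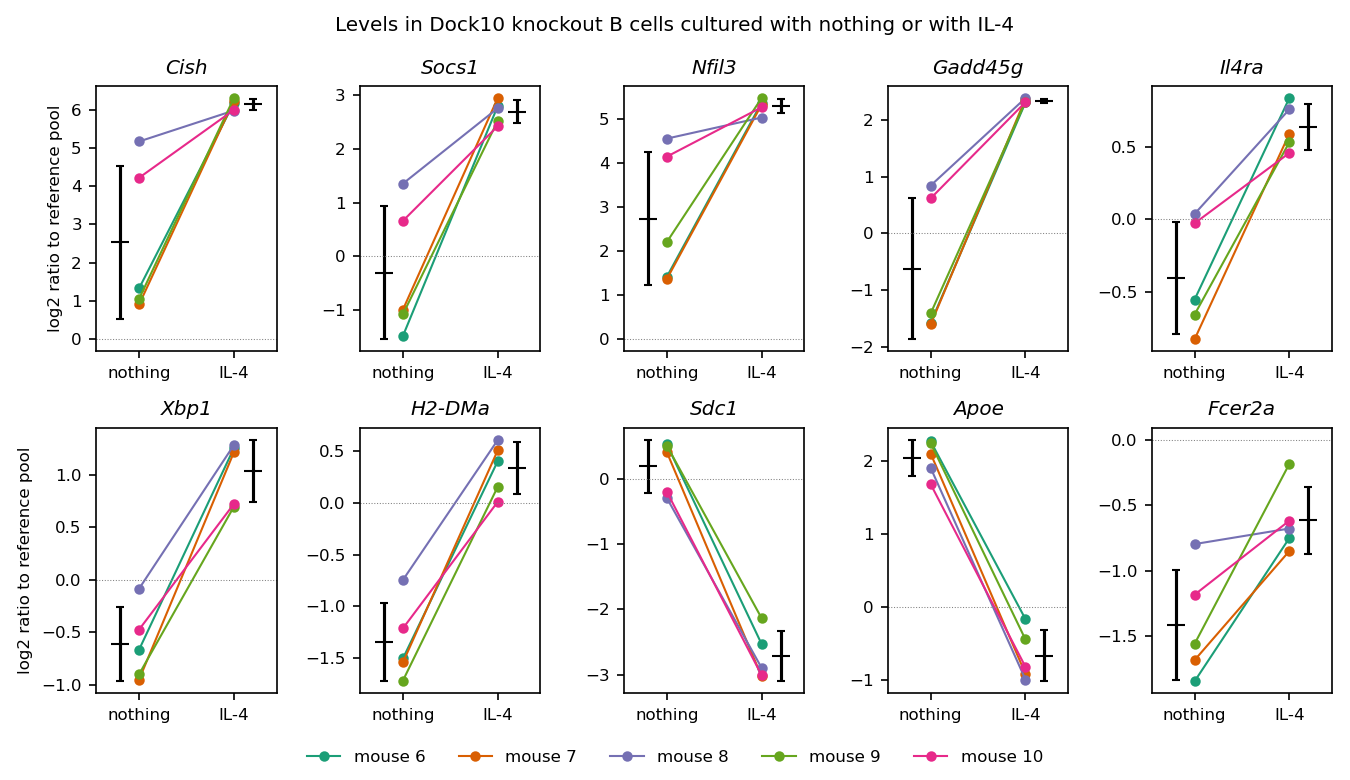
Levels of 10 genes in knockout B cells cultured with nothing or with IL-4. The y axes give the log2 ratio to the reference pool, each line joins the 2 samples of 1 mouse, and the bars beside the points are the mean and SD (n = 5). The control samples of mice 8 and 10 lie above the other 3 for Cish, Socs1, Nfil3, Gadd45g, Il4ra, Xbp1, H2-DMa and Fcer2a. They lie below the other 3 for Sdc1 and Apoe, which fell in all 5 mice.

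Of the IL-4 receptor, JAK and STAT6 chain, 13 of 14 listed genes were measured, 3 were called higher and 2 lower, and the list's median difference was 0.19. Il4ra, which encodes the receptor chain that binds IL-4, had levels of -0.55, -0.83, 0.04, -0.66 and -0.03 in KO_Ctrl and 0.84, 0.59, 0.76, 0.53 and 0.46 in KO_IL4. The groups did not overlap. The increase was 1.04 ± 0.14 (SE; 2.05-fold, adjusted p = 7.04e-06 in limma), and its 2 probes gave 0.44 and 1.64, with the second called on its own.

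The kinases did not move together. Jak2 rose by 0.75 (adjusted p = 1.37e-05), from levels of -0.01 to 0.44 to levels of 0.90 to 0.99. Jak1, the kinase bound to the receptor alpha chain, fell by 0.88 (adjusted p = 8.15e-07), with no overlap between groups. Jak3, which sits on the common gamma chain, rose by 0.65 (adjusted p = 0.0212), and that call was lost without the control arrays of mice 8 and 10 (adjusted p = 0.0792). Stat6 differed by -0.01 ± 0.12 (SE) and was not called.

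Irs2, an adaptor that links the receptor to phosphatidylinositol 3-kinase, had a difference of -1.54 (adjusted p = 0.0478), which lost its call in 12 of 24 alternatives, among them the fit without the control arrays of mice 8 and 10 (adjusted p = 0.0545). With the mouse as a block, Il13ra1, Irs1 and Inpp5d were also called (adjusted p = 0.0221, 0.0484 and 0.0341), which made 5 genes higher and 3 lower. The 2 probes of Irs1 went opposite ways without the block, by -0.57 and 1.49 (adjusted p = 0.0657 and 0.00941 in limma). Their mean difference of 0.46 describes neither probe.

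The SOCS family, feedback inhibitors of JAK and STAT signalling, had 4 of 8 members higher and 0 lower, with a median difference of 0.59. Cish reached 6.17, 6.23, 5.98, 6.30 and 5.99 in KO_IL4, close to each other, while its control levels ran from 0.91 to 5.17. The fitted increase was 3.60 ± 0.52 (SE; 12.1-fold, adjusted p = 2.89e-05), and 5.03 without the control arrays of mice 8 and 10. Socs1, which binds JAK kinases, had control levels of -1.48, -0.99, 1.35, -1.08 and 0.66 and IL-4 levels of 2.80, 2.95, 2.76, 2.52 and 2.43. Every IL-4 level exceeded every control level. Its increase was 3.00 ± 0.35 (SE, adjusted p = 8.62e-07), and 3.88 without those arrays.

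Socs3 rose by 1.19 (adjusted p = 0.00854) and Socs2 by 0.76 (adjusted p = 0.0148), each in 5 of 5 mice but with overlapping groups. Fitted on the 10 arrays with the mouse as a block, Cish, Socs2 and Socs3 were not called (adjusted p = 0.0847, 0.154 and 0.131).

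Of 20 genes listed as known IL-4 targets, 10 were higher, 1 was lower and 9 were not called, with a median difference of 0.70, or 0.88 without the control arrays of mice 8 and 10. Il4i1, a secreted L-amino acid oxidase, lay at -1.25, -1.16, 0.54, -1.10 and 0.08 without IL-4 and at 1.76, 1.71, 1.86, 1.41 and 1.41 with it. No levels overlapped, and the increase was 2.21 ± 0.26 (SE, adjusted p = 1.06e-06), or 2.80 without the control arrays of mice 8 and 10. Nfil3, a basic leucine zipper factor needed for switching to IgE in mice, rose by 2.56 ± 0.48 (SE, adjusted p = 0.000801), with control levels of 1.42, 1.37, 4.56, 2.21 and 4.15 and IL-4 levels of 5.04 to 5.49. The increase of Nfil3 was 3.64 without those arrays, and it was not called when the 10 arrays were fitted alone with the mouse as a block (adjusted p = 0.102).

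Gadd45g, a stress sensor that binds MAP kinase kinase kinases, reached 2.31, 2.37, 2.38, 2.32 and 2.31 with IL-4 from control levels of -1.61 to 0.84. The 5 IL-4 arrays were nearly level, and the increase was 2.97 ± 0.33 (SE, adjusted p = 5.53e-07), or 3.87 without the control arrays of mice 8 and 10. Chil3, a chitinase-like protein of alternatively activated macrophages, rose by 2.26 (adjusted p = 0.0122), and Cd86, a costimulatory ligand, by 0.61 (adjusted p = 0.00608). Irf4, a factor of plasma cell differentiation, fell by 1.06 (adjusted p = 0.0264), a call lost in 7 of 24 alternatives. Retnla, another gene of alternatively activated macrophages, had a difference of 1.42 (adjusted p = 0.0503, and 0.00705 with the mouse as a block), while Ccl17, Ccl22, Arg1, Gfi1 and Pdcd1lg2 were between -0.47 and -0.08 and not called.

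Fcer2a encodes CD23, the low-affinity IgE receptor. Its levels were -1.84, -1.68, -0.80, -1.56 and -1.18 in KO_Ctrl and -0.75, -0.85, -0.68, -0.18 and -0.62 in KO_IL4. All 5 mice had more with IL-4, the groups overlapped, and both stayed below the reference pool. The increase of 0.80 ± 0.25 (SE; 1.74-fold) was called at an adjusted p of 0.0451, and the call was lost in 16 of 24 alternatives, among them the mouse as a block (adjusted p = 0.0547, and 0.104 in the 10 arrays alone). In wild-type cells the difference was -0.00 ± 0.25 (SE), and the difference between genotypes was not called (adjusted p = 0.255).

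Of the 11 Fc receptor genes, 4 were lower, 1 was higher (Fcer2a) and 6 were not called. Fcrl1, an Fc receptor-like protein of B cells, had levels from -1.48 to -1.01 in KO_Ctrl and from -2.76 to -2.53 in KO_IL4. These ranges are far apart, and the decrease was -1.45 ± 0.11 (SE, adjusted p = 1.58e-09). Fcrla, a related protein inside the cell, fell by 1.27 (adjusted p = 3.93e-05), Fcmr, the IgM receptor, by 0.55 (adjusted p = 0.0107), and Fcgr2b, the inhibitory IgG receptor, by 0.50 (adjusted p = 0.0267). Fcmr and Fcgr2b were not called when the 10 arrays were fitted alone with the mouse as a block (adjusted p = 0.0588 and 0.0516).

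The STAT6-type spacing, TTC and GAA with 4 bases of any kind between them, was searched for in the 250 bases before each annotated start (RefSeq, GRCm38.p6); the pattern is its own reverse complement, so 1 search covers both strands. Of 17 known targets with a sequence, 4 held it in at least 1 of their promoters, against 6.76% of all 27025 genes with a promoter. The share was 6.18% among genes called higher, 5.83% among those called lower and 6.27% among those not called. The promoters of Fcer2a, the CD23 gene, and of St7, the 1 match among the 14 of the 15 largest increases that had a sequence, are shown with 120 bases each and the matching stretch in capitals. The Fcer2a window is chr8:3690965-3691084 on the minus strand, with the match at -168 to -159 relative to 1 of its 3 starts, and the St7 window is chr6:17749050-17749169 on the plus strand, with the match at -60 to -51 relative to 1 of its 3 starts.
Fcer2a: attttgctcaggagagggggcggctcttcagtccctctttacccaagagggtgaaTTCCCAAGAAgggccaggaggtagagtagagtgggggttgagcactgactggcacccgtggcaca
St7: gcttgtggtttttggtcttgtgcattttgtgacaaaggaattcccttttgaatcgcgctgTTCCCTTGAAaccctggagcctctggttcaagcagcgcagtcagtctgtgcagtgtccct
A match is a description of the letters and does not show that STAT6 binds there.

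The 15 largest increases among called genes ran from 2.33 to 3.91. Sertad4, a transcriptional coregulator of the SERTA domain family, headed them with levels of 0.11, -1.27, 1.15, -0.89 and 2.57 without IL-4 and 3.89, 4.12, 4.28, 4.33 and 4.63 with it. The increase was 3.91 ± 0.49 (SE; 15.1-fold, adjusted p = 3.18e-06), or 4.93 without the control arrays of mice 8 and 10. Cst7, an inhibitor of lysosomal cysteine proteases, rose by 3.67, from levels of -1.04 to 1.47 to levels of 3.59 to 4.13, and by 4.53 without those arrays. Epcam, a cell adhesion molecule of epithelia, went from 0.75 to 1.27 in KO_Ctrl to 3.12 to 3.86 in KO_IL4, and its increase of 2.35 ± 0.18 (SE, adjusted p = 1.17e-09) was among the firmest. The control arrays of mice 8 and 10 lay close to the rest for this gene.

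Pole2, the second subunit of DNA polymerase epsilon, had an adjusted p of 1.1e-09, with an increase of 2.75 ± 0.20 (SE). Usp2, a deubiquitinase, rose by 2.93, Saxo2, a microtubule-associated protein, by 2.93, St7 by 2.89, Klhdc2, a substrate receptor of a ubiquitin ligase, by 2.44, and Clec2m, a C-type lectin gene, by 2.33. All of them had groups that did not overlap and kept their calls in each of the 24 alternatives. Without the control arrays of mice 8 and 10 the increases of St7 and Klhdc2 were 3.79 and 3.08.

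In 2 of the 15, single arrays weighed heavily. Fndc3b stood at -6.38 in mouse 6 without IL-4, while the other 4 controls ran from -0.83 to 0.31, against 0.51 to 2.39 with IL-4. Its difference was 2.75 (adjusted p = 0.0206), or 3.45 without the control arrays of mice 8 and 10. Without the control array of mouse 6 it was 1.49, the smallest of the alternatives. Hao1, a peroxisomal oxidase known from liver, reached 5.38 in the control array of mouse 8 and lay between -1.89 and 0.35 in the others, against 2.34 to 4.64 with IL-4. Its difference was 3.21 (adjusted p = 0.0158) and 4.85 without the control arrays of mice 8 and 10. Both calls were lost when the 10 arrays were fitted alone, with the mouse as a block (adjusted p = 0.183 for Fndc3b and 0.258 for Hao1) and without it (0.236 and 0.188).

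**Figure D2:**
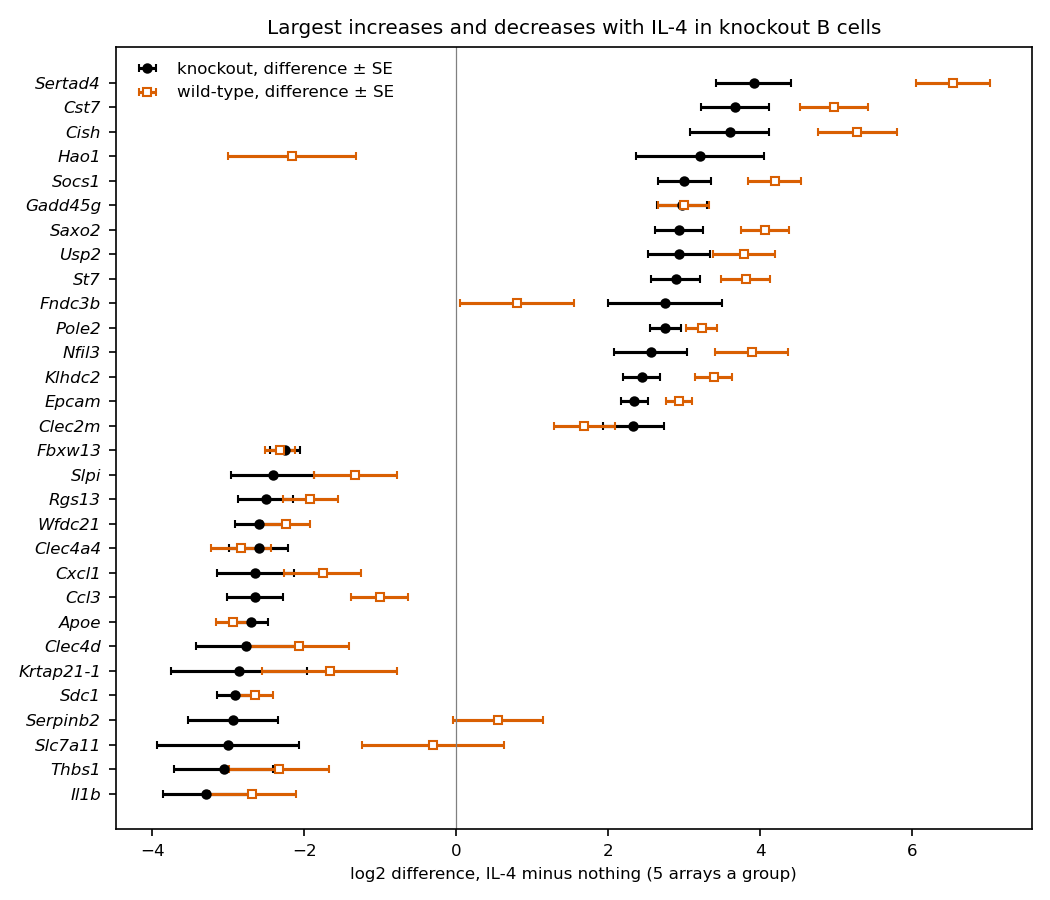
The 15 largest increases and 15 largest decreases with IL-4 among called genes in knockout B cells. The x axis gives the log2 difference between IL-4 and nothing with its SE, filled circles for knockout and open squares for wild-type cells (5 arrays a group). Knockout differences run from -3.29 for Il1b to 3.91 for Sertad4, and Hao1 and Serpinb2 have wild-type differences of the opposite sign.

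MHC class II and peptide loading had 8 of 16 measured genes higher and 0 lower, with a median difference of 0.68 against 0.02 over all genes. Ifi30, a lysosomal thiol reductase that unfolds antigens, rose by 1.94 ± 0.24 (SE; 3.82-fold, adjusted p = 2.41e-06). H2-DMa, a chain of the chaperone that loads peptides onto class II, had levels of -1.50, -1.54, -0.74, -1.72 and -1.21 without IL-4 and 0.40, 0.51, 0.61, 0.15 and 0.01 with it. It passed from below to just above the reference pool in every mouse, by 1.68 ± 0.16 (SE, adjusted p = 4.23e-08).

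H2-DMb2 and H2-DMb1, the partner chains, rose by 1.71 and 1.19. The classical chains rose less, H2-Aa by 1.12, H2-Ab1 by 0.81 and H2-Eb1 by 0.65, as did Cd74, the invariant chain, by 0.70 (adjusted p = 0.0145), and with IL-4 all 4 remained below the cells before culture. Cd74 and H2-Eb1 were not called when the 10 arrays were fitted alone with the mouse as a block (adjusted p = 0.0815 and 0.124). Ciita, the coactivator of class II transcription, differed by -0.08 and was not called.

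Class II promoters are known for a Y box, an inverted CCAAT motif bound by NF-Y. The Y box CTGATTGG was found, on either strand, in 4 of 12 genes of the list with a sequence (H2-Aa, H2-Eb1, H2-Eb2 and H2-Oa), and in 4.43% of all genes with a promoter. It is not particular to this list, since 5 of 16 genes of cholesterol and fatty acid synthesis with a sequence (31.2%) held it too. The share was 8.33% among genes called higher, 3.93% among those called lower and 5.12% among those not called. The 4 promoters are shown because 2 belong to genes that rose and 2 to genes that were not called, H2-Eb2 with a difference of 0.16 (adjusted p = 0.467) and H2-Oa with 0.45 (adjusted p = 0.0645), and the same letters stand in all. The windows of 120 bases (RefSeq, GRCm38.p6) are chr17:34287824-34287943 on the minus strand for H2-Aa, and on the plus strand chr17:34305747-34305866 for H2-Eb1, chr17:34325516-34325635 for H2-Eb2 and chr17:34092259-34092378 for H2-Oa, and capitals mark the Y box.
H2-Aa: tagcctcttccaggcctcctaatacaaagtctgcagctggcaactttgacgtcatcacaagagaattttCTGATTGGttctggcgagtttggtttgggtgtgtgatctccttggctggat
H2-Eb1: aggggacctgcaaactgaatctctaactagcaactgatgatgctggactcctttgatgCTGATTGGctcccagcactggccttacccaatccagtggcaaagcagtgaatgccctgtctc
H2-Eb2: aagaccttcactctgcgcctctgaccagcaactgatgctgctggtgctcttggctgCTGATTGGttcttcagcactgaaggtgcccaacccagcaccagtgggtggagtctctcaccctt
H2-Oa: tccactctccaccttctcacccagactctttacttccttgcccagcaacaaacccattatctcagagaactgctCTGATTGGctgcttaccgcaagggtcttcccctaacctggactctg
Relative to the start the box begins at -51, -62, -103 and -46, in the order shown.

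Cholesterol and fatty acid synthesis had 13 of 21 measured genes higher and 0 lower, with a median difference of 0.83. Idi1, which isomerises isopentenyl diphosphate, had levels of 0.91, 0.50, 1.17, 1.02 and 1.02 without IL-4 and 2.21, 2.21, 2.19, 1.93 and 1.99 with it. The groups lay clearly apart, and the increase was 1.18 ± 0.13 (SE; 2.26-fold, adjusted p = 4.58e-07). Sqle, Mvd, Cyp51, Fdps and Mvk, enzymes of the same route, rose by 0.84 to 1.09, Hsd17b7 by 1.11 with all 3 probes called, and Lss, which closes the sterol ring, by 1.24 (adjusted p = 0.00355).

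The genes for the transcription factors that drive the route, Srebf1 and Srebf2, differed by 0.17 and 0.13 and were not called, nor were Acaca, Scd1 and Elovl6 of fatty acid synthesis, whereas Fasn rose by 0.68, a call lost without the control arrays of mice 8 and 10 (adjusted p = 0.0624). Lss and Fasn were not called when the 10 arrays were fitted alone with the mouse as a block (adjusted p = 0.0744 and 0.0787).

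Xbp1, the transcription factor of the secretory programme, lay at -0.67, -0.95, -0.09, -0.90 and -0.47 without IL-4 and at 1.25, 1.21, 1.28, 0.69 and 0.72 with it. It crossed the level before culture in all 5 mice, by 1.65 ± 0.16 (SE; 3.13-fold, adjusted p = 4.03e-08). Of the 24 genes of the unfolded protein response it belongs to, 5 were higher and 1 was lower (2 with the mouse as a block), and the folding factors Sdf2l1, Pdia4, Calr and Pdia6 rose by 0.42 to 0.63. Sdf2l1, Calr and Pdia6 were not called when the 10 arrays were fitted alone with the mouse as a block (adjusted p = 0.0725, 0.0727 and 0.0709). Hspa5, the main chaperone of the endoplasmic reticulum, differed by 0.51 (adjusted p = 0.051).

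Of 15 genes of plasma cell differentiation and class switching, 4 were lower, 2 higher and 9 not called, with a median difference of 0.12. Sdc1, the plasma cell surface proteoglycan CD138, had levels of 0.52, 0.41, -0.30, 0.50 and -0.20 without IL-4 and -2.53, -3.03, -2.90, -2.14 and -3.01 with it. Every mouse lost it, by -2.91 ± 0.24 (SE; 7.50-fold lower, adjusted p = 3.88e-09). Prdm1, which encodes the plasma cell regulator Blimp-1, fell by 0.81 (adjusted p = 0.0325) from levels that stayed above the reference pool, and Ung, a uracil glycosylase of class switching, by 0.99 (adjusted p = 0.0254). Ung was not called without the control arrays of mice 8 and 10 (adjusted p = 0.244) or in the 10 arrays alone with the mouse as a block (adjusted p = 0.236).

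Bcl6, the germinal centre repressor, rose by 1.21 ± 0.14 (SE, adjusted p = 1.49e-06) from levels of -0.71 to -0.09 to levels of 0.64 to 0.90. Among the other B cell transcription factors, Id3 fell by 0.93 and Bach2 by 0.63, Ikzf1 rose by 0.36, and Pax5, Ebf1, Spib and Foxp1 were between 0.04 and 0.13 and not called. The calls of Bach2 and Ikzf1 were lost in the 10 arrays alone with the mouse as a block (adjusted p = 0.0946 and 0.131), and that of Ikzf1 also without the control arrays of mice 8 and 10 (adjusted p = 0.0619).

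Costimulatory genes went both ways, with 2 of 15 higher and 4 lower. Cd83, a surface protein of activated B cells, rose by 1.44 (adjusted p = 0.000299) from levels of -0.58 to 0.31 to levels of 1.12 to 1.56. Cd70, the ligand of CD27, fell by 1.02 (adjusted p = 0.0142, and 0.0727 in the 10 arrays alone with the mouse as a block), Cd274, which encodes the inhibitory ligand PD-L1, by 0.79 (adjusted p = 0.00648) and Cd24a by 0.78 (adjusted p = 8.25e-05). Cd40 differed by 0.15 and Cd80 by -0.33, neither called.

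The chemokine and cytokine list had 9 of 22 genes lower and 0 higher, with a median difference of -0.53. Il1b, an inflammatory cytokine, had the largest decrease of all called genes. Its levels were -0.47, -0.38, -1.53, -0.29 and -0.03 without IL-4 and -3.19, -4.12, -3.23, -4.81 and -3.80 with it. No levels overlapped, and the decrease was -3.29 ± 0.57 (SE; 9.77-fold lower, adjusted p = 0.000339). Ccl3, which attracts myeloid and T cells, lay at 2.66 to 3.48 without IL-4, well above the cells before culture, and at -0.09 to 1.13 with it, a decrease of -2.65 ± 0.37 (SE, adjusted p = 1.9e-05).

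Ccl4 fell by 2.03, Il12a, a subunit of interleukin 12, by 2.00, Il18 by 1.39, Cxcl16 by 1.22 and Ltb, which encodes lymphotoxin beta, by 1.16. Il6, Tnf and Il10 were not called, with differences of 0.72, -0.21 and -0.18.

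Other genes among the 15 largest decreases had a range of roles. Apoe, a lipid carrier, had levels of 2.27, 2.10, 1.90, 2.24 and 1.68 without IL-4 and -0.17, -0.92, -0.99, -0.45 and -0.82 with it. It passed from far above the reference pool to below it in all 5 mice, by -2.71 ± 0.23 (SE; 6.53-fold lower, adjusted p = 5.68e-09). Cxcl1, a neutrophil chemoattractant, fell by 2.64, Clec4d, a C-type lectin receptor of myeloid cells, by 2.76, Slpi, a protease inhibitor, by 2.42, and Thbs1, a matrix glycoprotein, by 3.06 (adjusted p = 0.00286) with overlapping groups.

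Serpinb2, another protease inhibitor, fell by 2.93 (adjusted p = 0.00165), with control levels from -1.39 to 3.34 and IL-4 levels from -3.38 to -0.78. Slc7a11, the cystine transporter, and Krtap21-1, a keratin-associated protein, had differences of -3.00 and -2.86, with the IL-4 array of mouse 6 at -6.64 and -4.43, against 0.21 to 1.51 and 1.91 to 3.14 in the other 4. Without that array the differences were -1.54 and -1.50. Slc7a11 was not called with the mouse as a block (adjusted p = 0.0551), nor were it and Krtap21-1 in the 10 arrays alone with that block (adjusted p = 0.279 and 0.245), and neither gene was called without the control arrays of mice 8 and 10 (adjusted p = 0.0615 and 0.116).

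Genes that place B cells in the spleen shifted in opposite directions. Of 16 trafficking receptors, 2 were higher and 4 lower. Ccr7, which guides cells to the T zone, fell by 1.42 (adjusted p = 0.0016) and Ccr6 by 1.54 (adjusted p = 5.71e-05), with no overlap between groups for either. Gpr183, also known as EBI2, the oxysterol receptor, rose by 1.23 (adjusted p = 1.01e-06), from -0.71 to -0.06 to 0.49 to 0.87. S1pr3, a sphingosine-1-phosphate receptor, rose by 1.54 ± 0.18 (SE, adjusted p = 1.53e-06).

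S1pr3 is also listed as a marker of marginal zone B cells, and it moved against that list, which had 4 of 13 genes lower, 1 higher and a median difference of -0.61. Rasgrp3, an activator of Ras, fell by 1.41 ± 0.10 (SE, adjusted p = 1.1e-09), from levels of -1.06 to -0.57 to levels of -2.37 to -2.02. Cd36, a scavenger receptor, fell by 1.37, Cd1d1, which presents lipids, by 1.24, and Cr2, the complement receptor CD21, by 0.72 (adjusted p = 0.00547, and 0.133 in the 10 arrays alone with the mouse as a block). The 2 probes of Cr2 gave -0.97 and -0.48, with only the first called on its own. In these bulk samples fewer cells of a type and less RNA per cell cannot be told apart. Rgs13, a brake on signalling by G protein-coupled receptors, fell by 2.51 ± 0.36 (SE, adjusted p = 2.65e-05), and 3 of 11 genes of its family list were lower and 0 higher. Rgs2 (difference -0.82) lost its call with the mouse as a block (adjusted p = 0.0538, and 0.103 in the 10 arrays alone) and without the control arrays of mice 8 and 10 (adjusted p = 0.103).

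Of 23 measured genes of B cell receptor signalling, 6 were lower and 1 was higher (2 with the mouse as a block). This is a share of 30.4%, against 8.40% of all genes, and under quantile normalization 0 of the 23 were called. Syk, the kinase that relays the receptor's signal, fell by 0.68 (adjusted p = 0.000338, both probes called), Cd5, a negative regulator, by 0.86 and Blnk, the adaptor downstream of Syk, by 0.41 (adjusted p = 0.0597 in the 10 arrays alone with the mouse as a block), while Cd79b, a receptor subunit, rose by 0.50. Among early response genes 1 of 26 was higher and 3 were lower (15.4% called, against 8.40% of all genes). With the mouse as a block 5 were lower, and under quantile normalization 0 of the 26 were called. Egr2, a zinc finger factor, rose by 1.28 (adjusted p = 0.000163) to levels of 1.71 to 1.95, and Dusp6, a phosphatase of ERK, fell by 0.81. Bmf, a proapoptotic protein, fell by 1.08 (adjusted p = 0.000316) and was the 1 called gene of 15 in the BCL2 family (6.67%, against 8.40% of all genes). In that family Bcl2l1 differed by 0.40 (adjusted p = 0.307).

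Interferon-inducible GTPases had 3 of 14 genes lower and 0 higher (21.4%, against 8.40% of all genes). Gbp3 differed by -1.24 (adjusted p = 4.65e-07), Gbp2 by -0.79 and Gbp9 by -0.79. Of 28 other interferon-stimulated genes 1 was higher and 1 lower, Ifit2 by -1.50 (adjusted p = 0.00114), a share of 7.14% against 8.40% of all genes. With the mouse as a block, 2 GTPases were higher and 4 lower, as were 2 and 2 of the other interferon-stimulated genes. Under quantile normalization, 0 GTPases were higher and 1 lower, and 0 of the other interferon-stimulated genes were called.

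Several lists were called at about the share of all genes or below it. Of the lists of growth and metabolism, ribosome biogenesis had 1 of 25 genes called, glycolysis 1 of 18, cell cycle 2 of 25, the MYC network 2 of 21 and respiratory chain subunits 2 of 23, against 8.40% of all genes. Among NF-kB subunits, inhibitors and TRAF proteins limma called 0 of 20, and 1 with the mouse as a block. Of these 20 genes 7 had an unadjusted p under 0.05 in limma, as had 4729 of all 21892 genes. Their groups did not overlap in 4 of 20, against 9.22% of all genes. In 5 of 23 respiratory chain subunits every IL-4 level lay above every control level, against 5.02% of all genes.

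**Figure D3:**
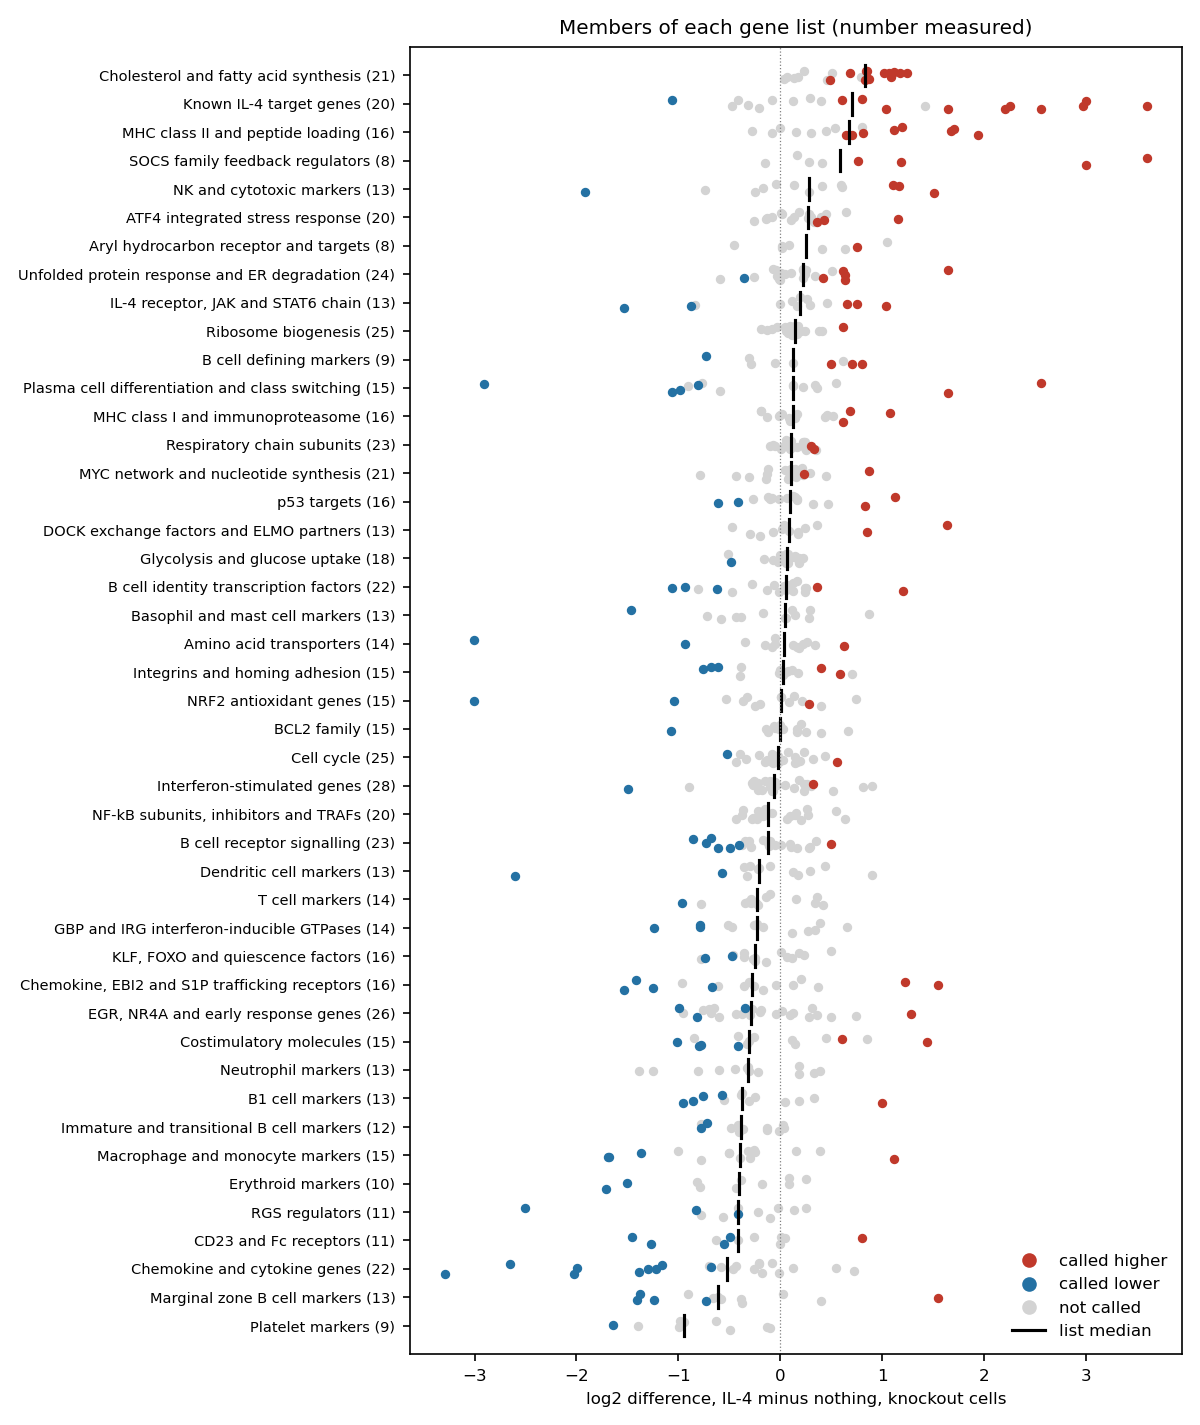
Differences of the members of the gene lists reported here, sorted by list median, with the number measured in parentheses. The x axis gives the log2 difference between IL-4 and nothing in knockout cells, red and blue points are genes called higher and lower, grey points were not called, and black bars are list medians. Cholesterol and fatty acid synthesis has the highest median, 0.83, and platelet markers the lowest, -0.95.

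Of 13 measured DOCK exchange factors and ELMO partners, the family Dock10 belongs to, 2 were higher, 0 lower and 11 not called. This is a share of 15.4%, against 8.40% of all genes. The RNA detected by the Dock10 probes rose by 1.64 ± 0.17 (SE; 3.11-fold, adjusted p = 1.63e-07) in the knockout cells, and its 3 probes gave 1.33 to 1.80, each called, as were 8.42% of all 30625 probes. In wild-type cells the increase was 2.16 ± 0.17 (SE), and the difference between genotypes was not called (adjusted p = 0.273). Dock9, the nearest kin along with Dock11, rose by 0.85 (adjusted p = 0.0324), where the IL-4 array of mouse 7 stood at 0.83 and the other 4 between -0.82 and -0.46. That call was lost without the control arrays of mice 8 and 10 (adjusted p = 0.15) and in the 10 arrays alone with the mouse as a block (adjusted p = 0.143), and Dock11 differed by -0.20 and Dock8 by 0.04, neither called.

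Some markers of other cells were called, against 8.40% of all genes. Of 15 macrophage and monocyte markers 3 were lower (Cd14, Spic and Marco, by -1.69, -1.68 and -1.37) and 1 higher (Adgre1, which encodes F4/80, by 1.12). The list's median level lay between -0.78 and -0.12 in KO_Ctrl and between -1.41 and -0.54 in KO_IL4, and Lyz2, with adjusted p = 0.0838, and Csf1r (-0.50) were not called. Dendritic cell markers had 2 of 13 lower, among them Clec4a4 by -2.60, and erythroid markers 2 of 10, Car2 by -1.71 and Hbb-b1 by -1.50 (adjusted p = 0.0549 without the control arrays of mice 8 and 10). T cell markers (7.14%) and basophil and mast cell markers (7.69%) were called at no more than the share of all genes, with 1 of 14, Cd2 by -0.96, and 1 of 13, Kit by -1.46. Limma called 0 of 13 neutrophil markers, with 1 at an unadjusted p under 0.05, and their median difference was -0.32.

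Of 9 platelet markers 1 was lower, Pf4 by -1.64, and 5 were with the mouse as a block; their median level lay between -1.28 and -0.03 in KO_Ctrl and between -2.31 and -0.94 in KO_IL4. Of 13 NK and cytotoxic markers 3 were higher (Gzma, Tbx21 and Eomes, by 1.51, 1.17 and 1.11, with Eomes not called in the 10 arrays alone with the mouse as a block, adjusted p = 0.126) and Klrd1 was lower, by -1.92. The part of these cells in the decreases of Il1b, Ccl3, Apoe, Cxcl1 and Clec4d was not tested.

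The size of the effect by genotype was compared in the same fit. IL-4 changed 5899 genes (26.9%) in wild-type and 1838 (8.40%) in knockout cells, and 1310 were called in both, 71.3% of the knockout and 22.2% of the wild-type genes, 1293 of them with the same sign. The difference between the effects was called for 261 genes (1.19%), of which 88 were called in knockout cells, 220 in wild-type cells and 170 had opposite signs. The wild-type effect was the larger in size in 207. This count rested on a single array to a great extent. Without the control array of mouse 8 it was 1309, without the arrays of mice 8 and 10 it was 1565, and over all arrays left out one at a time it went down to 97, without the IL-4 array of mouse 9.

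Of the 168 genes chosen by rule, 6 had a called difference between genotypes. Over whole lists it was called for 5 of 24 genes of the unfolded protein response and 3 of 25 of ribosome biogenesis. It was also called for 2 of 15 plasma cell and 2 of 13 marginal zone genes, against 1.19% of all genes, and the other lists had fewer. The 6 are as follows. Cr2 fell by 0.72 in knockout and by 1.91 in wild-type cells, a difference of 1.19 ± 0.23 (SE, adjusted p = 0.0126). Sdf2l1 rose by 0.63 and by 1.49, a difference of -0.86 (adjusted p = 0.0235), and Shmt2, the mitochondrial serine hydroxymethyltransferase, by 0.36 and by 1.13, a difference of -0.77 (adjusted p = 0.00402), though the knockout increase of Shmt2 was not called in the 10 arrays alone with the mouse as a block (adjusted p = 0.094). In these 3 genes IL-4 moved both genotypes the same way, by less in the knockout cells, but the levels differed in kind. Shmt2 had means of 2.28 in knockout and 1.61 in wild-type cells without IL-4, and of 2.64 and 2.75 with it. For Sdf2l1 the means were -1.22 and -1.23 without IL-4, and -0.59 and 0.26 with it. For Cr2 they were -2.95 and -2.34 without IL-4, and -3.68 and -4.25 with it.

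Serpinb2 fell in knockout cells from a mean of 0.55 to -2.38, while in wild-type cells it lay at -2.84 without IL-4 and at -2.29 with it (difference of the effects -3.48, adjusted p = 0.0383). Hao1 had a wild-type difference of -2.16, against 3.21 in knockout cells (difference of the effects 5.37, adjusted p = 0.0265). Pigr, the polymeric immunoglobulin receptor, had a wild-type difference of -1.04, against 0.00 in knockout cells (difference of the effects 1.04, adjusted p = 0.0496). Its 2 probes gave 0.74 and -0.73 in knockout cells, neither called, and their mean describes neither probe. All 6 differences were also called without the control arrays of mice 8 and 10. The strongest increases were smaller in knockout cells by value, as with Sertad4 (3.91 and 6.54), Cish (3.60 and 5.28) and Socs1 (3.00 and 4.19), but these differences were not called (adjusted p = 0.0572, 0.254 and 0.218), and without those arrays the differences were -1.61, -0.25 and -0.31 (adjusted p = 0.0597 for Sertad4).

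**Figure D4:**
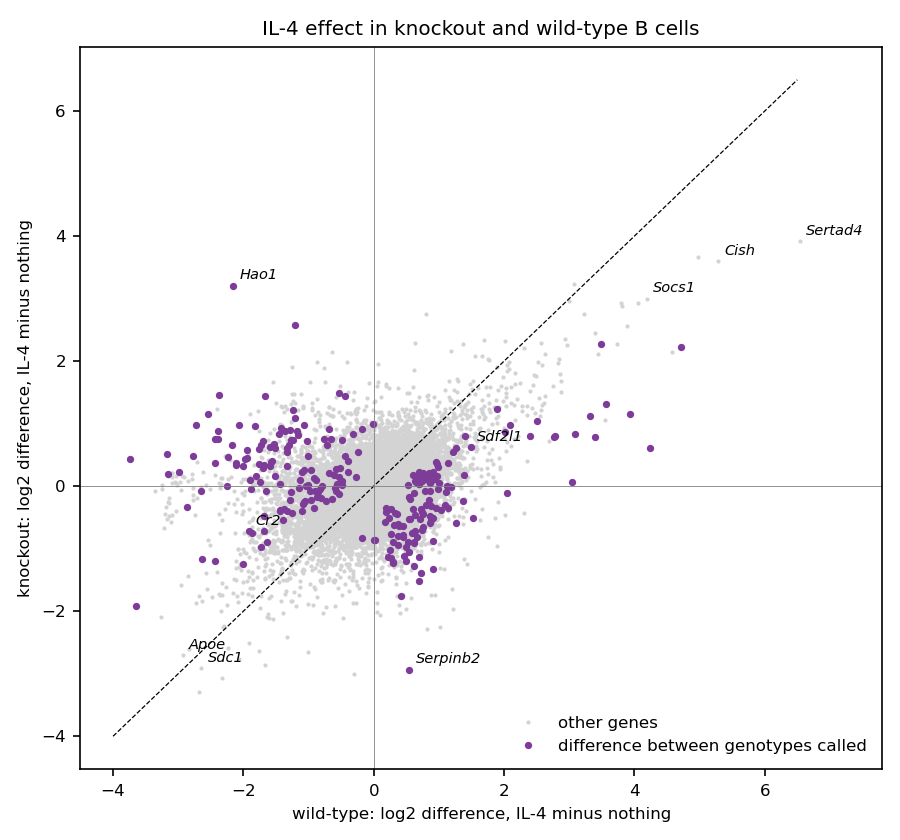
Log2 difference with IL-4 in wild-type (x axis) and knockout B cells (y axis) for 21892 genes, with the 261 genes whose effect differed between genotypes in purple and the line of equal effects dashed. Sertad4, Cish and Socs1 lie below the line without a called difference, Hao1 and Serpinb2 lie in the quadrants of opposite sign, and Sdc1 and Apoe lie near the line.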

How the data were processed

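Gene expression was measured on Agilent Mouse GE 4x44K v2 arrays, with test samples labelled Cy5 and the pool Cy3, per the labels. Signals were extracted by the authors with Agilent Feature Extraction 11.0.1.1, per the submitters' processing notes, and GeneSpring GX was used, per the series' design text. The deposited values are log2 ratios of test to reference. How the authors normalized and filtered, and on which genome build, is not given in the sources used here. Of 39485 probes 30625 carried 1 gene symbol (30331 matched to RefSeq by Entrez identifier), and their values were averaged per gene to 21892 genes, with no filter. Ratio arrays have no sequencing depth; the number of mice limits the precision.

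Limma 3.58.1 in R 4.3.3 fitted 6 groups on the 30 arrays of mice 6 to 10 (lmFit, eBayes, 24 residual degrees of freedom). The IL-4 effect and its difference by genotype were called at a Benjamini-Hochberg adjusted p under 0.05. SEs are moderated. The pipeline was tested on simulated data. Equal numbers mark cells of the same mouse, so the value with the mouse as a block in the 30 arrays is given where it changes a call. Fitted on the 10 arrays alone, the block also left out the other groups' share in the spread. Residuals of the same knockout mouse with and without IL-4 had correlations of 0.167, 0.195, -0.281, -0.112 and 0.276 for mice 6 to 10. Between different mice they ran from -0.321 to 0.343, a range that holds all the same-mouse values.

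The genes named are the 15 largest differences among called genes in each direction, every member of 5 lists closest to IL-4 and Dock10, and the 3 largest called members of each other list (in a list of other cells' markers without a call, the largest difference). Clone and predicted symbols were left out of the ranks. Other list members in the text were chosen after their values were seen. The members and the 46 lists were chosen with earlier results of these data known; 1 list is not reported here. Promoters are the 250 bases before RefSeq starts. Alternatives were other scalings, a filter on the SD, eBayes settings, array weights, other sets of arrays, blocks, covariates, a minimum difference, single probes and leaving out each array. The spike-in covariate and leaving out both control arrays of mice 8 and 10 were added after the data were seen. Arrays of cells before culture entered the fit for mice 6 to 10 and were otherwise used in the alternative with all 40 arrays.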

Additional observations from a re-analysis of the deposited data

Results flagged for a closer look

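Single arrays lay far from the other 4 of their group in 14 cases (13 genes) by Dixon's gap test at n = 5, of 336 groups tested (4.17%), where chance alone gives about 5%. In the control group they were Fndc3b in mouse 6 (-6.38), Slc7a11 (0.49), Vcl (-0.98) and Cd74 (-0.88) in mouse 8, Elmo3 in mouse 9 (0.43) and Bmf in mouse 10 (-0.26). With IL-4 they were Slc7a11 (-6.64), Krtap21-1 (-4.43) and Plscr1 (1.66) in mouse 6, Dock9 in mouse 7 (0.83), Slc2a3 in mouse 9 (-0.28), and Fcer1g (0.11), Gzma (0.97) and Car2 (-1.19) in mouse 10. All are log2 levels against the reference pool.

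The median level of a list was set apart in the same way in 8 of 92 groups (8.70%), and lists share genes and arrays. In the control array of mouse 8 the chemokine and cytokine genes lay lowest (-1.47) and the B cell markers highest (-0.82), and in that of mouse 6 the respiratory chain lay highest (0.032). In the IL-4 array of mouse 10 the B cell receptor list (-1.12), the chemokine and cytokine genes (-1.14) and the B cell markers (-1.18) lay lowest. In the IL-4 array of mouse 6 the aryl hydrocarbon receptor list lay lowest (0.14) and the markers of immature B cells highest (-0.77).

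The IL-4 effect differed between genotypes, by the test of the difference in limma, for 6 genes chosen by rule. Knockout minus wild-type, the log2 difference was 5.37 for Hao1, 1.19 for Cr2, 1.04 for Pigr, -0.77 for Shmt2, -0.86 for Sdf2l1 and -3.48 for Serpinb2, each from 5 arrays a group.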

How the results depend on the processing

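The counts of 876 genes higher, 962 lower and 261 with an effect that differed between genotypes depended on the setting. Quantile normalization gave 167 and 183, testing the genes with an SD above the median 314, 507 and 159 (fewer genes tested), a minimum log2 difference of 1 gave 200, 299 and 169, and the 10 knockout arrays alone gave 524 higher. The mouse as a block in those 10 arrays (replicate block) gave 330 and 515, and in all 30 arrays 962 and 1089. The genotype difference was called for 1548 genes with array weights, 123 in the 20 cultured arrays, 467 with the mouse as a random block and 1565 without the control arrays of mice 8 and 10. Leaving out each array in turn gave 564 to 913 higher, 647 to 1051 lower and 97 (without the IL-4 array of mouse 9) to 1309 (without the control array of mouse 8) genotype differences; the lowest counts of genes higher came without the IL-4 arrays of mice 7 (564) and 8 (573). The genotype count was also moved by leaving out the control arrays of mice 7 (109) and 9 (120) and the IL-4 arrays of mice 6 (172) and 10 (151). The share of called genes that were higher, 47.7%, was 38.2% with the SD filter, and under median centring 704 higher and 942 lower were called (42.8%). The cause of these shifts was not tested, apart from the smaller sets of genes or arrays.

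Of 129 called genes chosen by rule, 42 kept call and direction in every alternative run and 87 lost the call in at least 1, 79 of them under quantile normalization, 4 with the mouse as a block in 30 arrays and 37 in 10. Of 39 not called, 6 were called in at least 1 alternative. Flt3, which fell by 0.58, was 0.34 at the probe with the highest adjusted p (adjusted p = 0.231). For Il4ra, Jak3, Socs2, Rgs2, Cr2, Itgam, Itga4, Sox4, Foxo1 and Psat1, too, only part of the probes was called on its own. Under quantile normalization 4 of 16 MHC class II genes and 7 of 21 of cholesterol and fatty acid synthesis were called higher, and 4 of 22 chemokine and cytokine genes lower. Signal over background was not used here, so values near background cannot be told from low levels.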

Other observations

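Other lists of stress, transport and cell identity had some members called, against 8.40% of all genes. The shares ran from 12.5% for the quiescence factors and the aryl hydrocarbon receptor list to 38.5% for the B1 cell markers. Of 20 genes of the ATF4 response 3 were higher and 0 lower. Atf5, a factor of that response, went from levels of 2.09 to 3.35 without IL-4 to 3.57 to 4.25 with it, an increase of 1.15 (adjusted p = 9.27e-05). Psat1, of serine synthesis, rose by 0.43 (adjusted p = 0.0324, and 0.114 in the 10 arrays alone with the mouse as a block). Of 14 amino acid transporters 1 was higher, Slc7a3 by 0.62, and 2 lower, among them Slc1a4 by -0.93, and none kept its call without the control arrays of mice 8 and 10. Among 15 NRF2 genes Osgin1 differed by -1.04 (adjusted p = 0.0452) and Pgd by 0.28 (not called in the 10 arrays alone with the mouse as a block, adjusted p = 0.142), and Tiparp of the aryl hydrocarbon receptor list rose by 0.75 (adjusted p = 0.0227), a call lost without those arrays (adjusted p = 0.0588).

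Of 16 p53 targets 2 were higher and 2 lower (25.0%, against 8.40% of all genes). Fas, the death receptor, lay at -0.91, -0.87, -0.90, -0.37 and 0.40 without IL-4 and at 0.24, 0.62, 0.36, 0.67 and 1.07 with it, an increase of 1.12 (adjusted p = 0.000723) in 5 of 5 mice with overlapping groups. Sesn1, a stress sensor, fell by 0.61 (adjusted p = 0.00305). Of 16 genes of MHC class I and the immunoproteasome 3 were higher, Pdia3 by 1.08, Erap1 by 0.68 and Calr by 0.62, of which Erap1 and Calr lost the call in the 10 arrays alone with the block (adjusted p = 0.176 and 0.0727). In 13 B1 cell markers Plscr1 rose by 0.99 and Cd5, Anxa2, Itgam and Zbtb32 were lower. Of the 3 probes of Itgam only that at -1.92 was called on its own, and the others gave -0.25 and -0.09. Anxa2 was not called without the control arrays of mice 8 and 10 (adjusted p = 0.0636). Among 15 integrins and homing molecules Itgb7 and Itga4 fell by 0.68 and 0.61, and Selplg rose by 0.59. Itgb7 was not called without those arrays (adjusted p = 0.0673), nor Itga4, Selplg and Zbtb32 in the 10 arrays alone with the block (adjusted p = 0.125, 0.0515 and 0.0806). Quiescence factors had 2 of 16 lower (12.5%), Btg1 by -0.74 and Foxo1 by -0.48. Markers of immature B cells had 2 of 12 lower (16.7%), Cd24a by -0.78 and Sox4 by -0.72 (adjusted p = 0.0616 without the control arrays of mice 8 and 10).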
